A study of Arabidopsis thaliana with 40 samples.

Results

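The 39 genes examined here carry cytokinin synthesis, breakdown and signalling in *Arabidopsis thaliana*. They were chosen by locus: 3 AHK receptors, 6 AHP phosphotransfer proteins, 7 type-B and 10 type-A response regulators (ARR), 7 cytokinin oxidases (CKX) and 6 isopentenyltransferases (IPT). All 39 had a row among the 32678 *Arabidopsis* loci of the expression table. The series holds 40 samples with 1 shared label, single cells of the root quiescent center (QC), the rarely dividing cells at the core of the root stem cell niche. The plants carried the WOX5:GFP reporter, in which the promoter of a QC homeobox gene drives GFP, in the Col-0 background, and were grown on MS agar with 0.5% sucrose until 5 DAS, that is, 5 days past stratification. Root cell walls were digested with enzymes, GFP-positive cells were sorted into reverse transcription buffer, and poly(A) RNA was amplified by CEL-Seq, a method that barcodes each cell and tags the 3′ ends of transcripts. There was no second genotype, treatment or time.

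Cytokinins are adenine-derived plant hormones. IPT enzymes make their precursors and CKX enzymes degrade them. The hormone binds histidine kinase receptors, which pass a phosphate through AHP proteins to ARR proteins. Type-B ARRs are DNA-binding factors that switch on target genes, among them the type-A ARRs, which lack that DNA-binding domain and dampen the pathway. In the root meristem cytokinin is known for promoting the exit of cells into differentiation, and for acting against auxin around the QC.

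Counts were recovered from 39 profiles, and all values below come from them. Ordered by total count, from 57655 over *Arabidopsis* loci in QC cell 4 to 7431708 in QC cell 22, no gene or spike-in lost counts as depth grew (0 of 32771 rows at any of the 38 steps). Each profile thus held all counts of the shallower ones, so the profiles were counted as 1 sample, no test was made, and levels are given for the deepest, QC cell 22. Whether a column holds the counts of 1 cell or a running sum over several cells cannot be told apart from these values, so a level below is that of the profile labelled QC cell 22 and may not be that of a single cell. Levels are in CPM, counts scaled to a total of 1000000 over *Arabidopsis* loci, with exact Poisson 95% intervals that cover counting error only, since no molecular identifiers are stated. The smallest count above 0 was 2, and whether genes of low coverage were filtered out is not stated. A gene listed at 0 therefore gets no upper limit, and no fold is given against it. In the same profile 9 of 16 markers of root cell types were above 0. Of the QC markers WOX5 had 10.6 CPM, AGL42 2.96 CPM and SCR, which the endodermis shares, 28.5 CPM, while PLT1, PLT2 and the GFP row were listed at 0. Of the other cell types' markers, the endodermal regulator MYB36 had 130.0 CPM, APL of the phloem 20.5 CPM, GL2 of the epidermis 8.48 CPM, SHR of the stele 4.17 CPM, SUC2 of the phloem 4.04 CPM and VND7 of the xylem 1.21 CPM. VND6, COBL9, CASP1, SMB and BRN1 were listed at 0. RNA of cells other than QC cells may therefore contribute to the levels below, and its part in them was not tested.

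The phosphotransfer proteins differ at the residue that takes up the phosphate. Their coding sequences at this site are shown because they separate the carriers of the signal from AHP6, a pseudophosphotransfer protein known to inhibit it. Capitals mark the codon of that residue, and each run is 36 bases of the spliced coding sequence from that codon on, from RefSeq annotation of the TAIR10.1 build.
AHP1: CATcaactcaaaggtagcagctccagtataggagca
AHP2: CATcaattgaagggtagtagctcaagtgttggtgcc
AHP3: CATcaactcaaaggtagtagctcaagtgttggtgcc
AHP4: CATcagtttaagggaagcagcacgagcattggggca
AHP5: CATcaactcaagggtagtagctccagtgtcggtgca
AHP6: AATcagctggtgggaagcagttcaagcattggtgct
The codon read histidine in AHP1 to AHP5 and asparagine in AHP6, a difference of H79N counted from the first methionine of AHP1. In AHP1 to AHP5 an intron lies after base 26 of the run, and the AHP6 run is not interrupted in the transcript used. The genomic spans are chr3:7578847-7578986 for AHP1, chr3:11264748-11264866 for AHP2, chr5:15749754-15749881 for AHP3, chr3:5554758-5555027 for AHP4, chr1:848688-848817 for AHP5 and chr1:30134176-30134211 for AHP6. AHP1 and AHP2 are on the minus strand and the others on the plus strand. Of these sequences, the histidine forms AHP1, AHP2, AHP3 and AHP5 were detected in the deepest profile, while the histidine form AHP4 and the asparagine form AHP6 were listed at 0.

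In the deepest profile 18 of the 39 cytokinin genes were above 0 (46.2%), against 51.3% of all 32678 loci and 60.3% of the 26712 protein-coding loci. Of the 39 genes, 10 reached 10 CPM (25.6%), against 27.8% of all loci, and 4 were above 0 in every profile (10.3%), against 15.3% of all loci. All 4 of these genes, AHK3, AHP1, AHP2 and ARR2, belong to signalling, as do 26 of the 39 genes. Presence in every profile is set by the shallowest profile, which held 2 to 5 counts of each. The 3 shares come from the same nested counts and are not separate observations. With 1 sample, their differences from all loci were not tested. The median over the 39 genes was 0 CPM, and 13.5 CPM over the 18 above 0. Over all loci the median was 0.673 CPM, and 12.1 CPM over those above 0.

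The parts of this list of 39 genes were unevenly represented. Of the 26 signalling genes, 15 were above 0 (57.7%), and their sum of 411 CPM made up 97.1% of the counts of the 39 genes. Of the 13 genes of synthesis and breakdown, 3 were above 0 (23.1%), with a sum of 12.1 CPM and 2.86% of the counts. The share above 0 was 51.3% over all loci and 60.3% over protein-coding loci. These 13 genes are not all of cytokinin metabolism. Of the enzymes outside this list, described below, the LOG genes summed to 99.98 CPM, with 3 of 8 above 0. The glucosyltransferases summed to 110.7 CPM and APT1 had 119.9 CPM. CYP735A1, CYP735A2, IPT4, IPT6 and IPT8 were listed at 0. The median transcript length was 1590 bases for the signalling genes and 1820 bases for the genes of synthesis and breakdown. In the table as a whole, 32.5% of the shortest and 76.5% of the longest of 5 length bins of protein-coding loci were above 0. The part of length in the split between these lists was not tested.

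**Figure D1:**
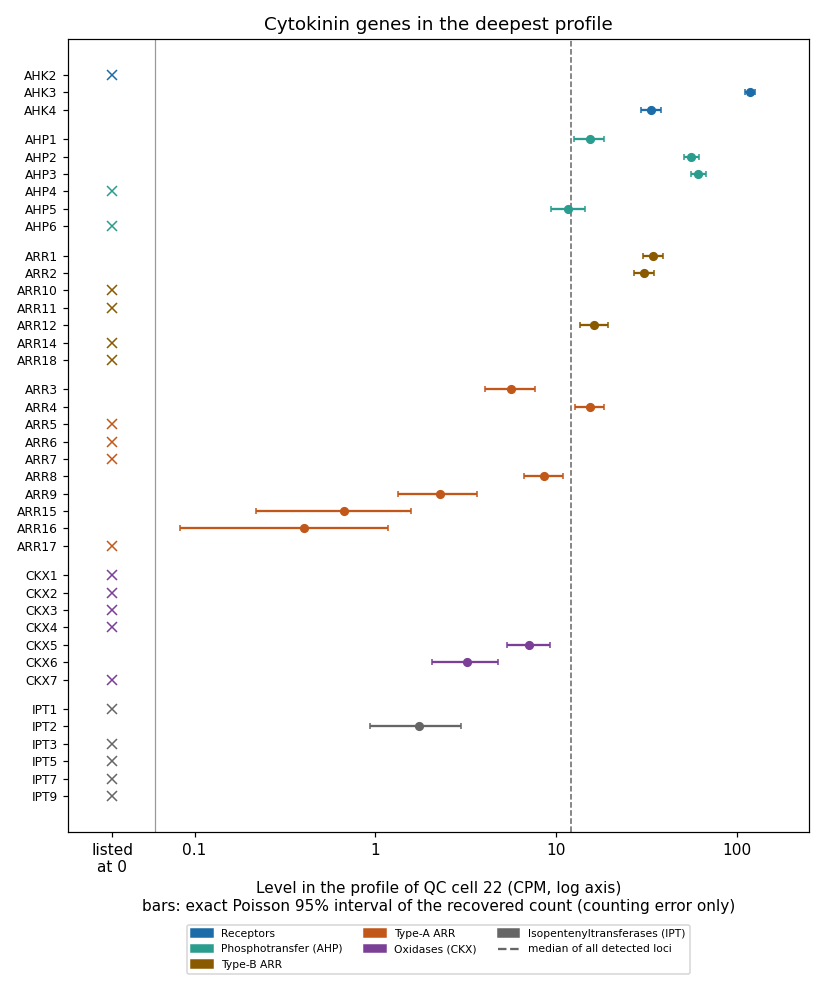
Level of each of the 39 cytokinin genes in the profile of QC cell 22 in CPM on a log axis, coloured by class, with crosses for genes listed at 0, bars for exact Poisson 95% intervals and a dashed line at the median of all loci above 0. AHK3 stood at 118.5 CPM, while 5 of 7 CKX and 5 of 6 IPT genes were listed at 0.

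Of the receptors, AHK3 (AT1G27320) was above 0 in all 39 profiles, with a lowest, median and highest level of 86.7, 121 and 129 CPM. Its count of 881 in the deepest profile gave 118.5 CPM (interval 111 to 127), above 91.1% of the loci detected there. AHK4 (AT2G01830), also called CRE1 or WOODEN LEG and known for its role in the formation of the root vasculature, was above 0 in 38 of 39 profiles, with a lowest, median and highest level of 0, 33.4 and 69.8 CPM. The highest of these came from its first 8 counts, in a profile of 114683 counts, so the spread was widest where the depth was lowest. In the deepest profile AHK4 had 249 counts, or 33.5 CPM (29.5 to 37.9). AHK2 (AT5G35750), which acts in part redundantly with AHK3, was listed at 0 in all 39 profiles. Its transcript has 4459 bases, that of AHK3 4513 bases and that of AHK4 4451 bases. Why AHK2 was listed at 0 was not tested. The ratio of AHK4 to AHK2 and AHK3 together was 0.283 in counts (0.245 to 0.326) and 0.287 per kb of transcript, so it hardly depended on length.

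Among the phosphotransfer proteins, AHP3 and AHP2 stood apart from the rest of the class. AHP2 (AT3G29350) was above 0 in all 39 profiles, at a lowest, median and highest level of 52.0, 56.9 and 67.1 CPM, and had 417 counts or 56.1 CPM (50.9 to 61.8) in the deepest. AHP3 (AT5G39340) was above 0 in 38 profiles, at 0, 61.7 and 70.1 CPM, and had 457 counts or 61.5 CPM (56.0 to 67.4) in the deepest. The 2 genes overlapped in counting error, with an AHP2 to AHP3 ratio of 0.912 (0.797 to 1.04) in counts. Per kb the ratio was 1.37, so the gene that came out ahead depended on the scale. AHP1 (AT3G21510) was above 0 in all profiles at 9.33, 15.3 and 34.7 CPM, lowest, median and highest, with 114 counts or 15.3 CPM (12.7 to 18.4) in the deepest. AHP5 (AT1G03430) was above 0 in 37 profiles at 0, 12.3 and 18.3 CPM, with 87 counts or 11.7 CPM (9.38 to 14.4) in the deepest. AHP4 (AT3G16360) and AHP6 (AT1G80100) were listed at 0 throughout, so the whole phosphotransfer total came from genes with the histidine codon.

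Of the type-B ARRs, the transcription factors of the pathway, 3 of 7 were above 0. ARR1 (AT3G16857) was above 0 in 38 profiles at a lowest, median and highest level of 0, 35.9 and 44.1 CPM, and had 256 counts or 34.5 CPM (30.4 to 38.9) in the deepest. ARR2 (AT4G16110) was above 0 in all 39 profiles at 27.7, 31.7 and 52.0 CPM, and had 229 counts or 30.8 CPM (27.0 to 35.1) in the deepest. These close paralogs could not be separated at this depth, with an ARR1 to ARR2 ratio of 1.12 in counts (0.932 to 1.34) and 1.12 per kb. ARR12 (AT2G25180), which together with ARR1 is known to restrain root meristem size, was above 0 in 38 profiles at 0, 14.7 and 34.9 CPM, and had 121 counts or 16.3 CPM (13.5 to 19.5) in the deepest. ARR10, the paralog closest to ARR12, was listed at 0 in all profiles, as were ARR11, ARR14 and ARR18.

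Of the type-A ARRs, the negative regulators, 6 of 10 were above 0, and 1 of them reached 10 CPM. That gene, ARR4 (AT1G10470), was above 0 in 38 profiles at a lowest, median and highest level of 0, 15.5 and 24.4 CPM, with 115 counts or 15.5 CPM (12.8 to 18.6) in the deepest. Its paralog ARR3 (AT1G59940) was above 0 in 37 profiles at 0, 5.83 and 14.2 CPM, with 42 counts or 5.65 CPM (4.07 to 7.64) in the deepest. ARR3 was thus below ARR4 on both scales, with a ratio of 0.365 (0.250 to 0.524) in counts and 0.562 per kb. ARR8 (AT2G41310) was above 0 in 31 profiles at 0, 8.17 and 10.9 CPM, with 64 counts or 8.61 CPM (6.63 to 11.0) in the deepest. Its paralog ARR9 (AT3G57040) had 17 counts or 2.29 CPM in the deepest and was above 0 in 26 profiles. The ARR8 to ARR9 ratio was 3.76 (2.18 to 6.86) in counts and 2.58 per kb, so ARR8 exceeded ARR9 on both scales.

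ARR15 and ARR16, both type-A, were at the limit of detection. ARR15 had 5 counts, or 0.673 CPM (0.219 to 1.57), and appeared in the 12 deepest profiles only. ARR16 had 3 counts, or 0.404 CPM (0.0833 to 1.18), and appeared in the 5 deepest. ARR5, ARR6, ARR7 and ARR17 were listed at 0. ARR7 and ARR15 are a close pair, both described as repressors of cytokinin output in the embryonic root precursor, and fell on different sides of detection. Their upstream sequences are shown for that reason, 250 bases up to the annotated start of the transcript, with the core letters AGATT bound by type-B ARRs in capitals on either strand (AGATT or AATCT).
ARR7: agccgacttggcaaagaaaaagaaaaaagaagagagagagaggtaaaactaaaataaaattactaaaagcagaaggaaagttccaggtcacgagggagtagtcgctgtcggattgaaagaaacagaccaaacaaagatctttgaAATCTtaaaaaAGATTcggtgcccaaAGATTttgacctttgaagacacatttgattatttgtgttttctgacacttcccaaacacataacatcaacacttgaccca
ARR15: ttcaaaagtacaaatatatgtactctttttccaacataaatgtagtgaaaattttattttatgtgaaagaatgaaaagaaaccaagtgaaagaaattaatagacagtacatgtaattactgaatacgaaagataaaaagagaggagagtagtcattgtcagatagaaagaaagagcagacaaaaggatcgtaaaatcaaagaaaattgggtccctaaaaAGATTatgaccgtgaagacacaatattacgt
The ARR7 window lies at chr1:6579315-6579564 and the ARR15 window at chr1:28133026-28133275 of TAIR10.1, both on the minus strand. The core occurred 3 times for ARR7, listed at 0, and 1 time for ARR15, with 5 counts. It was present upstream of 7 of the 10 type-A genes, 5 of the 6 above 0 and 2 of the 4 at 0, against 63.6% of 26711 windows of the same length over protein-coding genes. These letters are common, and a match describes the sequence and not a bound site.

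Of the oxidases, which remove cytokinin, CKX5 (AT1G75450) was above 0 in 32 profiles at a lowest, median and highest level of 0, 6.70 and 11.0 CPM, with 53 counts or 7.13 CPM (5.34 to 9.33) in the deepest. CKX6 (AT3G63440) had 24 counts or 3.23 CPM (2.07 to 4.81) and was above 0 in 27 profiles. CKX1, CKX2, CKX3, CKX4 and CKX7 were listed at 0 in every profile. Of the IPT genes, only IPT2 (AT2G27760) was above 0, in 28 profiles, with 13 counts or 1.75 CPM (0.931 to 2.99) in the deepest. IPT2 modifies adenine within tRNA, the source of cis-zeatin. IPT9, also of the tRNA type, and IPT1, IPT3, IPT5 and IPT7, which make the precursors of the main active cytokinins from free adenine nucleotides, were listed at 0.

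Some of these counts could belong to neighbouring or related genes, since the strand setting of the counting is not given in the sources used here. In the annotation 11 of the 39 genes overlap another gene, among them 6 of the 18 above 0. For CKX6, 85.9% of the 31-base words of its transcript are shared with the overlapping gene AT3G63445, and CKX6 had 24 counts against 29 for that gene. CKX5 had 53 counts against 56 for the overlapping AT1G75440, and 25.8% of its words are shared with overlapping genes. All or part of the counts of both oxidases thus cannot be told apart from those of their neighbours, and no other oxidase was detected. ARR1 overlaps AT3G16860, with 47 counts, but shares no words with it, and the gene that overlaps AHP3, AT5G39350, was listed at 0. ARR6 was listed at 0 although the overlapping AT5G62910 had 329 counts. ARR8 overlaps AT2G09250 and ARR9 overlaps AT3G08825, and neither neighbour has a row among the loci counted. With overlapping genes included, ARR8 shares 20.6% of its words with other transcripts. Outside overlaps, at most 9.30% of a gene's words recurred in another transcript, that value being for ARR8, so the paralog pairs differ in nearly all words. These shares are over whole transcripts and were not computed for the 3′ ends that CEL-Seq reads.

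**Figure D2:**
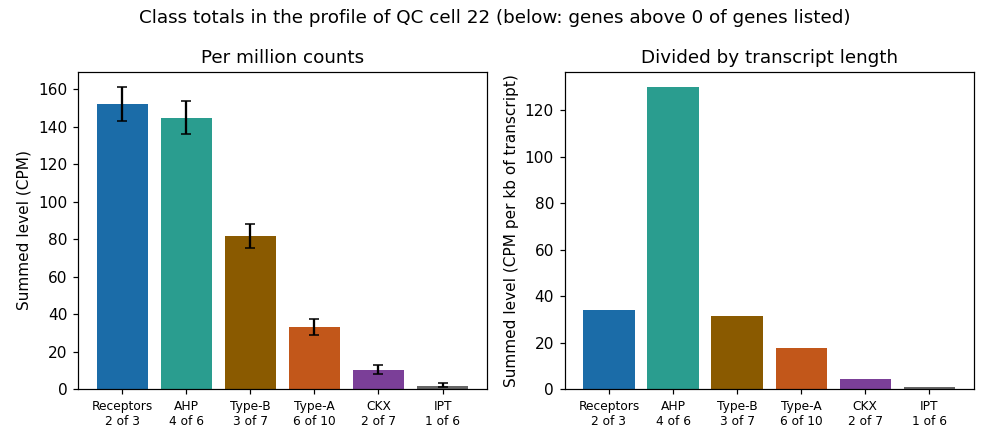
Summed level of each class in the profile of QC cell 22, in CPM with exact Poisson 95% intervals (left) and in CPM per kb of transcript (right), with the number of genes above 0 under each bar. Receptors and AHP proteins had 152 and 145 CPM, while per kb the AHP proteins reached 129.9 and the receptors 33.8.

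Summed by class, the receptors had 152 CPM (143 to 161), or 35.9% of the counts of the 39 genes, and the phosphotransfer proteins 145 CPM (136 to 154), or 34.2%. Type-B ARRs had 81.5 CPM (75.2 to 88.3) and type-A ARRs 33.1 CPM (29.1 to 37.5). The CKX genes had 10.4 CPM (8.18 to 13.0) and the IPT genes the 1.75 CPM of IPT2. Levels per kb placed the phosphotransfer proteins first at 129.9 CPM per kb, with receptors at 33.8, type-B ARRs at 31.6, type-A ARRs at 17.8, CKX at 4.24 and IPT at 1.05 CPM per kb. Division by length changed the standing of the receptors most, since their transcripts are the longest of the classes. In summed level the type-B ARRs exceeded the type-A ARRs on both scales, with a type-B to type-A ratio of 2.46 in counts (2.12 to 2.87) and 1.77 per kb. The order was the other way for the share above 0, 42.9% of type-B and 60% of type-A genes. It was also the other way for the median over all genes of the class, 0 CPM for type-B and 0.538 CPM for type-A. Without the genes that overlap another, type-B ARRs summed to 47.1 CPM and type-A ARRs to 22.2 CPM, and the phosphotransfer proteins, then without AHP3, to 83.2 CPM.

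Gene by gene, levels per kb fell into steps. AHP2 was highest at 63.9 CPM per kb (57.9 to 70.4), followed by AHP3 at 46.6 (42.4 to 51.0) and AHK3 at 26.3 CPM per kb (24.6 to 28.1), and these 3 intervals did not overlap. ARR1 at 12.9, ARR2 at 11.6, AHP1 at 10.7, AHP5 at 8.78, ARR4 at 7.67, AHK4 at 7.53 and ARR12 at 7.11 CPM per kb came next, and each overlapped its neighbour in this order. ARR3 at 4.31 CPM per kb (3.11 to 5.83) lay just under ARR12 (5.90 to 8.49), without overlap. ARR8, CKX5, CKX6, ARR9, IPT2, ARR15 and ARR16 followed at 3.63, 2.63, 1.61, 1.41, 1.05, 0.624 and 0.195 CPM per kb, with intervals that overlapped between neighbours. AHK4 and ARR4, which stood apart in CPM, thus overlapped per kb. Length is taken from the longest annotated transcript, and CEL-Seq reads come from 3′ ends. Counts of 3′ ends need not rise with length, so this order and its overlaps hold for the per kb scale only. Across the 16107 protein-coding loci above 0, counts and transcript length had a Spearman rho of 0.0357, a description over genes of 1 profile.

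**Figure D3:**
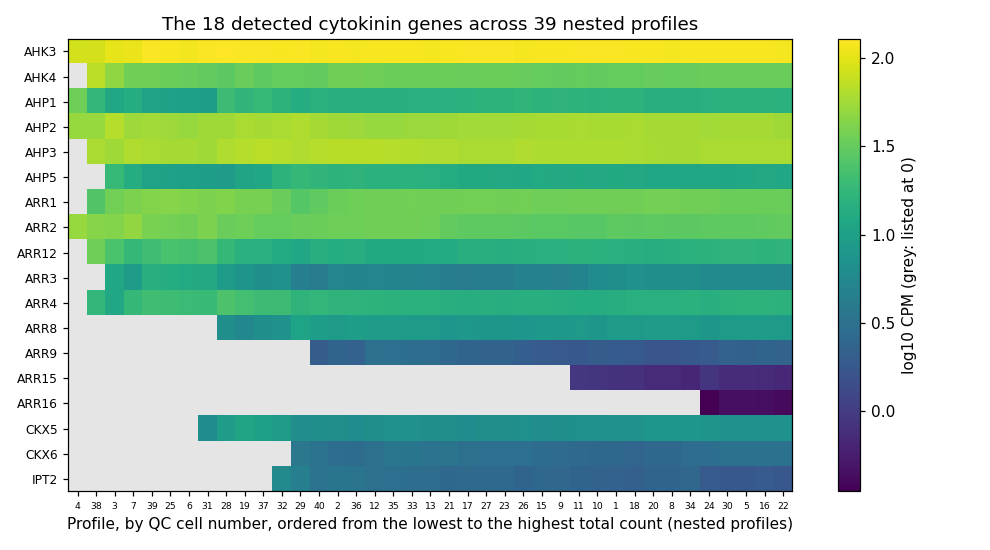
Levels of the 18 detected cytokinin genes (rows, by class) in the 39 nested profiles (columns, from the lowest to the highest total count, named by QC cell number), as log10 CPM, with grey for values listed at 0. AHK3, AHP1, AHP2 and ARR2 were above 0 in all 39 columns, while ARR16 appeared in the 5 deepest.

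In nested profiles the number of these genes detected can only stay or rise with depth. It was 4 in the shallowest profile, 16 in the profile of median depth (QC cell 13, 2096738 counts) and 18 in both the second deepest and the deepest. The share of all loci above 0 rose likewise, from 15.3% in the shallowest profile to 46.1% at median depth and 51.3% in the deepest. Between 2 and 8 counts were listed for a gene in the first profile that held it. ARR15 and ARR16 were the only genes that entered after the median depth. CKX5, CKX6, IPT2, ARR8 and ARR9 entered at totals between 321721 and 1497147 counts. Since the profiles are nested, the number that detect a gene describes its level and the depths, not how many cells express it.

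**Figure D4:**
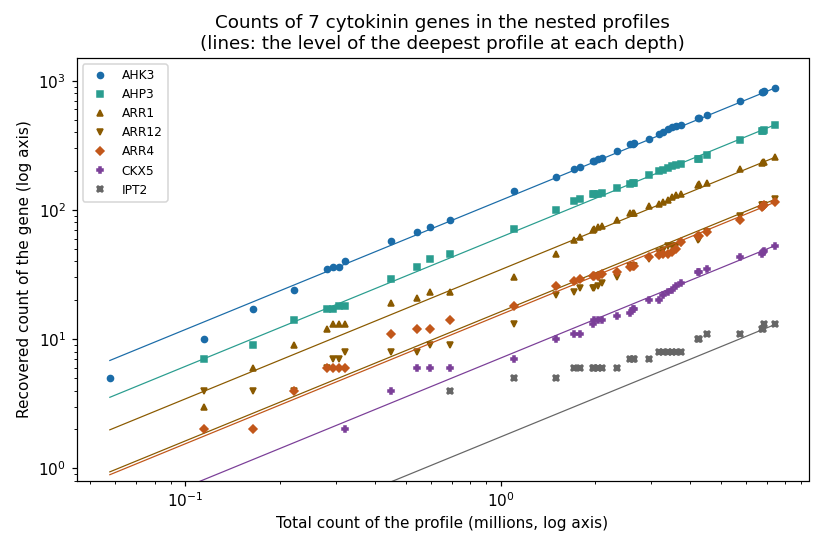
Recovered counts of 7 cytokinin genes (log axis) against the total count of each nested profile, in units of 1000000 (log axis), with lines for the level of the deepest profile carried to each depth. AHK3 followed its line to 881 counts, and IPT2 lay above its line at most depths before reaching 13 counts.

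The counts added between successive profiles do not include each other and can be set side by side. The nested series was divided into 5 depth segments of 1228427 to 1698324 added counts. AHK3 had 120, 120, 122, 124 and 108 CPM in these segments, and AHK4 had 31.4, 34.3, 32.2, 37.5 and 33.0 CPM. AHP2 had 58.1, 59.0, 56.1, 52.1 and 54.8 CPM. Over these 5 segments AHK3 thus ranged from 108 to 124 CPM, AHK4 from 31.4 to 37.5 CPM and AHP2 from 52.1 to 59.0 CPM. AHP3 had 66.8, 59.7, 49.7, 70.0 and 63.0 CPM, and AHP2 was ahead of AHP3 in 1 of the 5 segments. ARR1 had 30.7, 42.6, 35.5, 35.8 and 28.9 CPM and ARR2 34.1, 23.3, 29.7, 32.6 and 34.2 CPM, and their order also changed between segments. The order of ARR4 over ARR3 held in all 5, at 17.4, 11.7, 16.1, 13.0 and 18.3 CPM for ARR4 and 4.01, 5.49, 9.67, 4.07 and 4.71 CPM for ARR3. AHP5 had 16.7 CPM in the first segment and 7.55 to 11.6 CPM in the others. No interval was computed for a segment, so counting error may account for differences between segments, and this was not tested. Whether the segments come from 1 cell or from different cells cannot be told apart here, and they were not treated as replicates.

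A further list of 40 genes of the pathway, covering activation, conjugation, transport and related regulators, gave 19 above 0 (47.5%), against the same 51.3% of all loci and 60.3% of protein-coding loci. The 5 with the highest CPM were KMD2 at 376 CPM (362 to 390), PUP14 and APT1 at 120 CPM each, UGT85A1 at 99.98 CPM and LOG7 at 79.8 CPM. KMD2 is an F-box protein that targets type-B ARRs for degradation, and all 4 KMD genes were above 0, with a sum of 547 CPM and 326 CPM per kb. The type-B ARRs themselves had 81.5 CPM and 31.6 CPM per kb. LOG7 releases the active base from its nucleotide, and 3 of 8 LOG genes were above 0. APT1 runs the other way and returns cytokinin bases to nucleotides. UGT85A1 adds glucose to zeatin, and all 3 glucosyltransferases listed were above 0. PUP14 carries cytokinin across the plasma membrane. CYP735A1 and CYP735A2, which make trans-zeatin precursors, and IPT4, IPT6 and IPT8 were listed at 0, so that of 9 IPT genes examined, 1 was above 0. ARR13, ARR19, ARR20, ARR21, ARR22 and ARR24 were also listed at 0.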

How the data were processed

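Samples were the 40 profiles labelled as root QC cells, 1 group, and 39 were matched to a column by barcode. QC cell 14 was not analysed here. The authors deposited log2 values, taken after adding 1 to reads normalized for depth. The submitters' processing notes name Bowtie2 and TAIR10. For CEL-Seq the counter, its strand setting and any filter are not given in the sources used here. For its other single cells the paper used ngsutils, gave partial counts to reads with several alignments, and removed genes with low sequence coverage. Whether this filter was applied to the CEL-Seq profiles is not stated, and its part in the genes listed at 0 was not tested. Counts were recovered as whole multiples of 1 step per profile, with a largest residual of 0.000844 of a step, and scaled to CPM over *Arabidopsis* loci. ERCC spike-in RNAs, 4.97% of all counts in QC cell 22, were left out. A gene was detected above 0. Intervals were exact at the 95% level, Poisson for counts and Clopper-Pearson for ratios of counts. Depth limits precision, and 10 of 10 housekeeping genes were above 0 in the deepest profile, at 14.3 to 5133 CPM.

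The genes and lists were chosen with earlier results of these data known. All 39 are accounted for, and genes of at least 30 counts are described singly. Of the further pathway list, the 5 with the highest CPM are named. RefSeq TAIR10.1 supplied lengths, sequences and overlaps for 39 of 39 genes and 31912 of 32678 loci by locus name. Count recovery was tested on simulated data of 32678 rows and returned 100% of counts. Those data were built from whole counts with the transform that recovery inverts. The test therefore checks the code and cannot show that the deposited values are whole counts. Alternatives covered thinning to 10000 counts, a minimum of 10 counts, the profile of median depth, omission of the 4 most abundant loci, length scaling and overlapping genes. Python 3.11.15, numpy 2.4.6, pandas 2.3.3, scipy 1.17.1 and matplotlib 3.10.9 were used.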

Additional observations from a re-analysis of the deposited data

How the results depend on the processing

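Under 92 other settings 72 values were counted as unchanged and 20 as moved. For numbers of genes, unchanged meant within 1.5-fold of the main value, and for the median it meant equal. For class totals, single genes and ratios it meant within the 95% interval of counting error. After thinning to 10000 counts 4 of the 39 genes were detected, at 10 counts or more in every profile 0 were, and 6 reached 10 CPM per kb. The median was 13.5 CPM over detected genes only. Without the 4 most abundant loci the receptors summed to 176.6 CPM, phosphotransfer proteins to 168 CPM, type-B ARRs to 94.7 CPM and type-A ARRs to 38.4 CPM, by construction of the smaller total. Per kb the sums were 33.8 for receptors, 129.9 for phosphotransfer proteins, 31.6 for type-B ARRs, 17.8 for type-A ARRs and 4.24 for CKX, and the ratios 1.37 for AHP2 to AHP3, which was 0.912 in counts and so turned from under to over 1, 0.562 for ARR3 to ARR4 and 1.77 for type-B to type-A. Of 36 alternatives for single genes, 32 stayed within counting error. At median depth AHP5 had 14.8 CPM, ARR12 had 12.9 CPM, and ARR15 and ARR16 were listed at 0. Of 7 alternatives chosen after seeing the data, 4 moved. Without genes that overlap another, phosphotransfer proteins summed to 83.2 CPM, type-B ARRs to 47.1 CPM, type-A ARRs to 22.2 CPM and CKX to 0. No paired analysis was possible because there was 1 group. The nested profiles give 1 sample, so spread between cells and between plants is unknown, and depth limits the genes of few counts most.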

Other observations

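Several genes around the core pathway were also measured in the profile of QC cell 22. The cytokinin response factors (CRF), AP2-type transcription factors that respond to cytokinin, were above 0 for 5 of 6 genes and summed to 63.1 CPM (57.5 to 69.1, counting error only). CRF4 had 31.0 CPM, CRF3 had 27.9 CPM and CRF2 had 3.77 CPM, while CRF5 and CRF6 had 2 counts each and CRF1 was listed at 0. CRF5 and CRF6 both entered in the profile of QC cell 15 and kept 2 counts in all 14 profiles that held them. AHK5, a histidine kinase of the same family without the cytokinin-binding domain, had 33.2 CPM (29.2 to 37.7), and CKI1 and AHK1 were listed at 0. The purine transporter AZG1 had 56.0 CPM (50.7 to 61.6), and AZG2 and ABCG14, which exports cytokinin toward the shoot, were listed at 0. KMD1, KMD3 and KMD4 had 65.4, 27.6 and 78.2 CPM.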
